A study of Mus musculus with 47 samples.

Results

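The insulin-like growth factor (IGF) genes of muscle stem cells were followed over the day in mice on a high-fat or a control diet. The members are the ligands Igf1 and Igf2, the receptors Igf1r and Igf2r, and the binding proteins Igfbp3, Igfbp4, Igfbp5, Igfbp6 and Igfbp7, 9 genes in all. On the arrays, 17097 genes had a named probe set. Where several probe sets carried 1 symbol, the one with the highest mean was used. Of the 9 members, 7 had a probe set of their own and 6 passed the filter on low values, which 10258 of all genes passed. Igf2r and Igfbp7 were not analysed here, and Igfbp3 lay below the filter, so that its values are given without a test.

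The cells are satellite cells, stem cells that lie beneath the sheath of muscle fibres, taken from 47 female wild-type C57B6/J mice, 1 Affymetrix array per mouse. Per the labels, all mice started at 8 weeks of age, ate freely for 7 weeks and were 15 weeks old when sampled. The high-fat groups held 4 mice at each of zeitgeber times ZT0, ZT4, ZT8, ZT12 and ZT20 and 3 mice at ZT16, 23 mice in all. The control groups, on the matching control diet, held 4 mice at each of the 6 times, 24 mice in all. Zeitgeber time counts hours from lights on. Each day of collection served 1 time, so that a difference between times cannot be told apart from one between days, whereas the diets were compared within a day. How the cells were isolated is not given in the sources used here.

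IGF1 and IGF2 are secreted growth factors that act mainly through the tyrosine kinase receptor encoded by Igf1r, which signals through insulin receptor substrates, PI3K and AKT. The receptor encoded by Igf2r takes up IGF2 for degradation. IGF binding proteins hold the ligands outside the cell, which can limit or prolong their action, and proteases release the ligands again. In skeletal muscle, IGF signalling is known for its part in fibre growth and in the proliferation and differentiation of satellite cells.

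The 3 members that passed a test of diet or time, Igfbp5, Igfbp4 and Igf1r, are shown by the 250 bases upstream of their transcription starts (RefSeq, build GRCm38.p6), written 5′ to 3′ along the gene's own strand. Capitals mark matches, on either strand, to 8 short motifs: the E-box CACGTG, the D-box TTATGTAA, the ROR element AGGTCA, the TATA box TATAAA, the GC box GGGCGG, the AP-1 site TGANTCA, the FOXO site GTAAACA and the glucocorticoid receptor motif AGAACA.
Igfbp5, chr1:72874866-72875115, minus strand: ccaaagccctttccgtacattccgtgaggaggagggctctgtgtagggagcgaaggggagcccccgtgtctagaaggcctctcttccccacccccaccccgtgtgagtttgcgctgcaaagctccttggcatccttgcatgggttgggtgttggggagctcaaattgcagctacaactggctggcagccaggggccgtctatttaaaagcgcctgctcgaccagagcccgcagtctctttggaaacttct
Igfbp4, chr11:99040994-99041243, plus strand: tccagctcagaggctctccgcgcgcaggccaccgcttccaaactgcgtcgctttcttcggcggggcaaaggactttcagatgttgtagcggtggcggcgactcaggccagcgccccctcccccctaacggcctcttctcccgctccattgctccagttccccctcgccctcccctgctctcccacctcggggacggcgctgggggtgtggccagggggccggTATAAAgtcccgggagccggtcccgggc
Igf1r, chr7:67952007-67952256, plus strand: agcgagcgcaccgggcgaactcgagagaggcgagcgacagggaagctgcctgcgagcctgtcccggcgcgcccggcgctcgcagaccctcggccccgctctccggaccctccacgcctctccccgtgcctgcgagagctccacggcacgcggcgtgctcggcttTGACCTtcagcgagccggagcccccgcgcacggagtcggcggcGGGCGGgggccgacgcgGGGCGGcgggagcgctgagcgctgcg
The Igfbp5 window held none of the 8 motifs. The Igfbp4 window lies inside the gene's span (chr11:99040005-99052655) and precedes a start within that span. It held a TATA box that began 28 bases before that start, a motif found in 12.4% of 32851 such windows. The Igf1r window held a ROR element in the reverse orientation 86 bases before the start, a motif of 14.0% of windows. It also held 2 GC boxes, at 43 and 26 bases before the start, a motif of 32.7% of windows. A match is a run of letters and was not tested as a binding site.

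The arrays had log2 medians of 5.86 to 5.94, and their correlation over all genes lay between 0.942 and 0.988. Of 14 satellite cell markers, 13 had a probe set and all 13 passed the filter, Pax7 among them. Of 12 fibro-adipogenic and fibroblast markers, 8 passed, whereas Pdgfra, Lum and Pi16 lay below the filter. Those that passed included Gsn, Dpt, Col3a1 and Dcn, with control means of 11.52, 11.32, 11.26 and 10.14. All 6 pericyte and smooth muscle markers with a probe set passed, as did all 5 Schwann markers with one. The 1 erythroid marker that passed, Hba-a1, ranged from 6.74 to 10.54 in high-fat mice and from 6.67 to 11.01 in control mice. Of 10 macrophage and immune markers, 8 lay below it, including Ptprc, Adgre1 and Csf1r. Replicate 2 of the control group at ZT20 stood apart: its endothelial markers averaged 8.99, against 6.75 to 7.53 in the other 46 mice. In bulk RNA, fewer cells of a type and less RNA per cell cannot be told apart.

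Igfbp5, which encodes a binding protein made by many mesenchymal and muscle cells, was the member that differed between the diets. Averaged over the 6 times it was 1.60-fold higher on the high-fat diet (95% interval 1.34 to 1.90), a log2 difference of 0.67 ± 0.13 (SE) with an adjusted p of 0.000459 in limma. The gene spans chr1:72858065-72874865 (GRCm38.p6) and had 1 named probe set.

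At ZT0, Igfbp5 had log2 values of 9.89, 10.07, 8.89 and 9.64 in the 4 mice on the high-fat diet, against 8.77, 7.95, 7.75 and 7.84 on the control diet. The lowest high-fat mouse lay above the highest control mouse. The difference was 1.54 ± 0.30 on the log2 scale, 2.92-fold (95% interval 1.90 to 4.46, limma adjusted p = 0.0042). At ZT16 the values were 9.41, 9.40 and 10.25 on the high-fat diet, against 8.34, 8.83, 8.07 and 8.69 on the control diet, again without overlap. That difference was 1.20 ± 0.33, 2.30-fold, with a limma adjusted p of 0.0114. Without high-fat replicate 3 at ZT16 (10.25) it was 0.92, and its limma adjusted p was 0.121.

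The remaining times did not pass the test for Igfbp5. At ZT8 the 4 high-fat mice had log2 values of 8.99, 9.05, 8.82 and 9.04, against 8.69, 8.81, 8.37 and 8.49 in control mice. These groups did not overlap, with a difference of 0.39 ± 0.30 and a limma adjusted p of 0.536. At ZT12 the values were 9.20, 8.83, 10.38 and 10.08 on the high-fat diet, against 8.64, 8.70, 9.0 and 9.80 on the control diet. At ZT20 they were 9.85, 9.42, 9.06 and 8.59 on the high-fat diet, against 8.20, 8.66, 8.61 and 8.48 on the control diet. The groups overlapped at both times, with differences of 0.58 ± 0.30 at ZT12 and 0.74 ± 0.30 at ZT20. ZT4 was the time with the opposite sign: 8.08, 9.46, 9.0 and 8.46 on the high-fat diet, against 8.91, 9.29, 9.05 and 9.40 on the control diet, a difference of -0.41 ± 0.30 (limma adjusted p = 0.617).

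**Figure D1:**
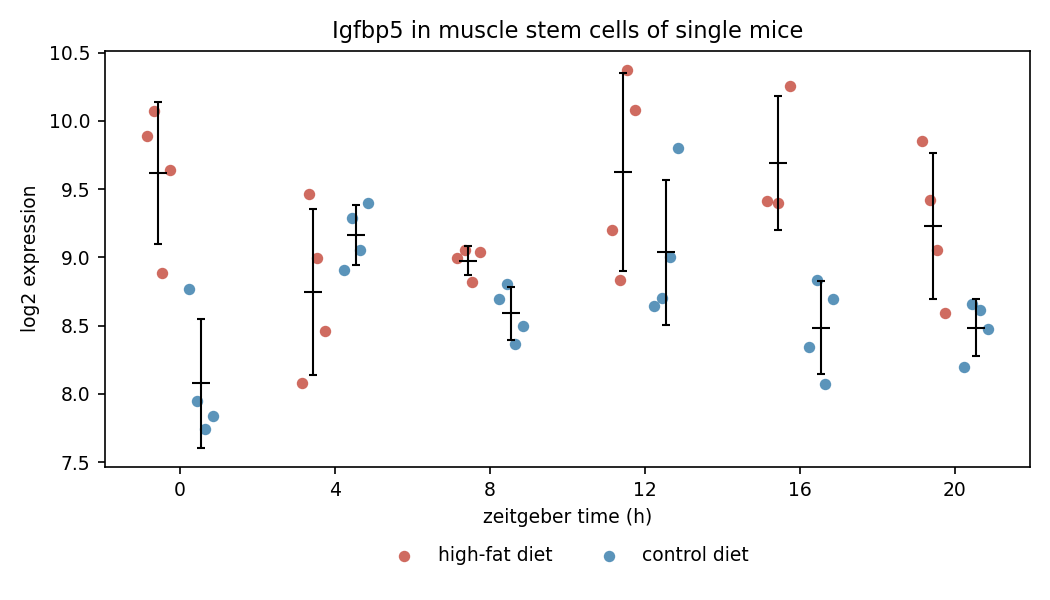
Igfbp5 in single mice. The x axis is zeitgeber time in hours and the y axis log2 expression; each point is 1 mouse, with high-fat mice (red) left of control mice (blue) at each time, and black marks give the group mean ± SD. High-fat mice lie above all control mice at ZT0, ZT8 and ZT16, while at ZT4 the high-fat mean is the lower one.

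The size of the Igfbp5 diet difference varied with the time of day (diet by time interaction, limma adjusted p = 0.0212). It passed in each of the 47 fits that left out 1 mouse, with adjusted p between 0.00958 and 0.0467. It no longer passed without all mice of ZT0 (adjusted p = 0.0767), of ZT4 (0.208) or of ZT16 (0.0582). The average diet difference passed in all 47 fits without 1 mouse and in all 15 other settings tried, with log2 differences between 0.50 and 0.89.

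Igfbp5 alone, 1 of the 6 members tested, passed the test for the average diet effect, against 11.5% of all genes tested (4.70% with higher and 6.80% with lower levels on the high-fat diet). It was also the only member to pass at ZT0, where 3.56% of all genes passed, and at ZT16, where 13.3% passed. No member passed at ZT4 (0.312% of all genes), ZT8 (1.78%), ZT12 (0.858%) or ZT20 (0.819%) in limma. Some uncalled members lay below an unadjusted p of 0.05 in limma. For the average effect this was Igf2 (limma unadjusted p = 0.0198). At single times they were Igf1 at ZT0, Igf2 at ZT4, Igf1r at ZT16, and Igf2, Igfbp4 and Igfbp5 at ZT20. The share of all genes below that level was not counted, so no excess among the members can be read from this. Counts over all genes at single times rested in part on single mice: 365 genes passed at ZT0 but 122 without high-fat replicate 4, and 1360 at ZT16 but 598 without high-fat replicate 3. The interaction was called for 12.4% of all genes. Groups did not overlap for 1 of 6 members at ZT0, against 9.99% of all genes, for 2 of 6 at ZT8 (Igfbp5 higher and Igfbp4 lower on the high-fat diet), against 9.83%, and for 3 of 6 at ZT16, against 29.1%. They overlapped for all 6 at ZT4, ZT12 and ZT20, where 5.38%, 7.47% and 6.33% of all genes had groups apart.

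Ordered by group mean, Igfbp5 was highest on the high-fat diet at ZT16 (9.69 ± 0.49), ZT12 (9.62 ± 0.73) and ZT0 (9.62 ± 0.52), and lowest on the control diet at ZT0 (8.08 ± 0.47; SD). No neighbours in this order of 12 groups differed by more than 0.41, less than the pooled SD of single mice within groups (0.45). The SE of a difference between groups of 4 mice was 0.30. ZT4 held the lowest mean on the high-fat diet (8.75 ± 0.61) and the highest on the control diet (9.16 ± 0.22).

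Markers of other cells were also measured beside Igfbp5. Of 8 fibro-adipogenic and fibroblast markers tested, 2 (Dpt and Col3a1, matrix proteins) rose on the high-fat diet and 0 fell, beside 4.70% and 6.80% of all genes; the median log2 difference was 0.12, against -0.01 over all genes. The mean of these markers was 9.37 ± 0.24 on the high-fat diet and 9.04 ± 0.10 on the control diet at ZT0. At ZT16 it was 9.20 ± 0.08 in high-fat mice and 8.86 ± 0.07 in control mice. At ZT12 it was 9.72 ± 0.21 on the high-fat diet and 9.14 ± 0.15 on the control diet, the widest gap. At ZT8 it was 8.99 ± 0.12 on the high-fat diet and 8.88 ± 0.12 on the control diet. It was lower on the high-fat diet at ZT4, with 9.24 ± 0.30 on the high-fat diet and 9.42 ± 0.23 on the control diet. At ZT20, where Igfbp5 had the higher mean on the high-fat diet, the list averaged 9.25 ± 0.28 on the high-fat diet and 9.34 ± 0.38 on the control diet, or 9.16 in controls without replicate 2. Over the 23 high-fat mice it ranged from 8.86 to 9.99, and over the 24 control mice from 8.78 to 9.89. Of 13 satellite cell markers, 6 rose and 1 (Myod1, a myogenic transcription factor) fell, beside the same shares of all genes. Their mean ranged from 10.05 to 10.38 on the high-fat diet and from 10.00 to 10.19 on the control diet. By group it was 10.12 on the high-fat diet and 10.06 on the control diet at ZT0, and 10.15 and 10.05 at ZT16. In the same order it was 10.16 and 10.08 at ZT8, 10.24 and 10.09 at ZT12, and 10.23 and 10.14 at ZT20. At ZT4 it was 10.12 on both diets. Between mice of the same group (47 mice, group means subtracted), Igfbp5 correlated with the satellite cell list at r = 0.44 (Spearman's rho 0.44) and with the fibro-adipogenic list at r = 0.16. Over the 12 group means, r was 0.65 with the satellite cell list and 0.60 with the fibro-adipogenic list. It was 0.49 with the tendon list and -0.57 with the pericyte and smooth muscle list. Between mice of a group, r with the tendon and pericyte lists was 0.17 and 0.34. The tendon list averaged 7.26 on the high-fat diet and 7.03 on the control diet at ZT0, and 6.89 and 6.11 at ZT16. In the same order it averaged 6.54 and 6.02 at ZT8, and 7.43 and 6.79 at ZT12. At ZT4 it averaged 6.16 and 6.70, and at ZT20 6.99 and 7.00. Other lists also held called genes. Of 5 Schwann cell markers, 2 rose, the myelin gene Mbp by 0.36 ± 0.09 (limma adjusted p = 0.00844) and Sox10. Of 3 tendon markers, 1 rose, the matrix gene Fmod, by 0.42 ± 0.14 (limma adjusted p = 0.0426), and of 8 mature myofibre markers, 2 rose (Pvalb and Actn3). The macrophage marker Cd68 fell by 0.30 ± 0.09 (limma adjusted p = 0.0200), 1 of 2 immune markers tested, and the pericyte marker Pdgfrb by 0.29 ± 0.08 (0.0204), 1 of 6. None of the 5 endothelial markers passed in limma, and 0 had an unadjusted p under 0.05. The part of any of these lists in the Igfbp5 difference was not tested.

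**Figure D2:**
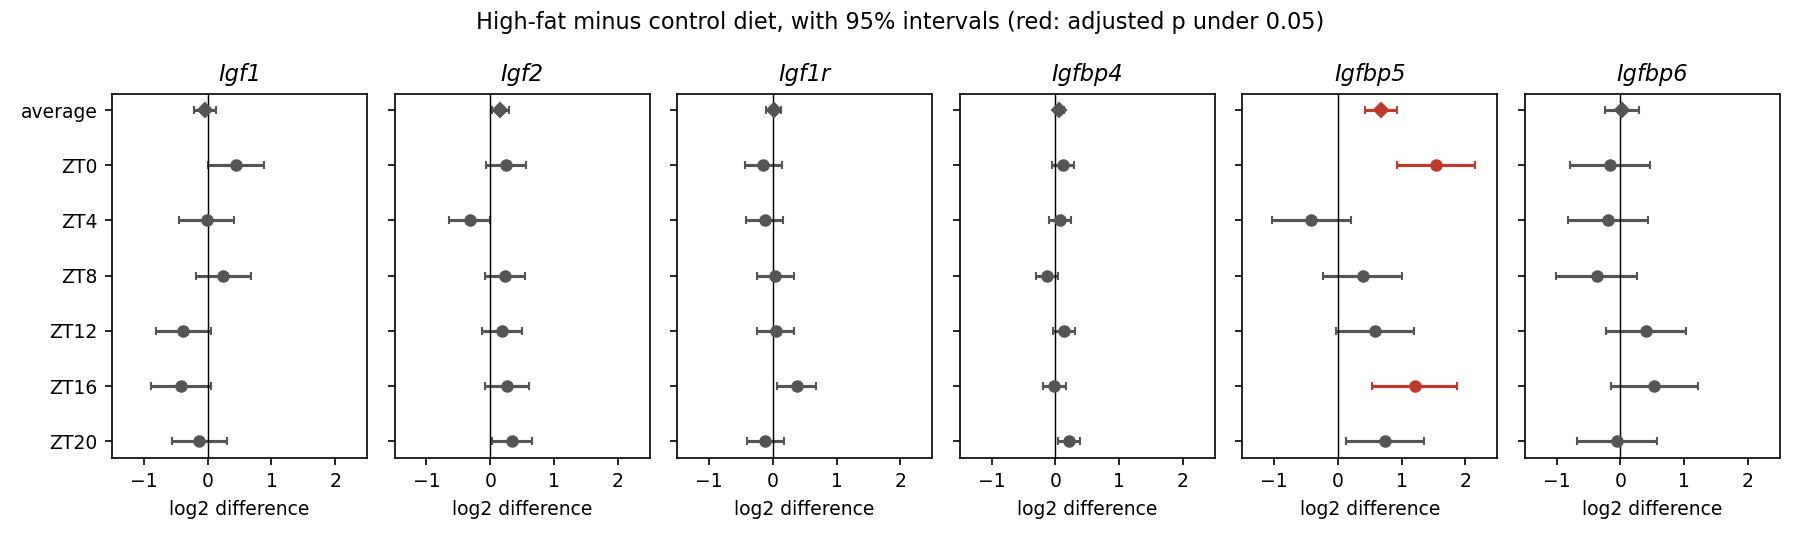
Diet differences of the 6 tested members. The x axis is the log2 difference, high-fat minus control diet, and each line down the page is the average over times or 1 zeitgeber time; bars are 95% intervals, and red marks an adjusted p under 0.05. Igfbp5 has the 3 red differences, of 0.67 (average), 1.54 (ZT0) and 1.20 (ZT16).

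The ligands did not pass the test for the average diet effect. Igf2, an imprinted gene that myoblasts make as they differentiate (chr7:142650768-142666816), ranged from 9.81 to 10.96 (median 10.74) over the high-fat mice and from 10.11 to 10.97 (median 10.53) over the control mice. Its mean was higher on the high-fat diet at 5 of 6 times, by 0.18 to 0.34 on the log2 scale. At ZT4 it was 10.40 ± 0.45 on the high-fat diet and 10.72 ± 0.19 on the control diet. The average difference was 0.16 ± 0.06, 1.12-fold (95% interval 1.02 to 1.22), with a limma adjusted p of 0.106. It did not pass in 45 of the 47 fits that left out 1 mouse, nor in 13 of the 15 other settings tried. Without all ZT4 mice, the time with the opposite sign, it was 0.25 and passed (limma adjusted p = 0.00454). It also passed without high-fat replicate 1 at ZT4 (0.19) or control replicate 2 at ZT16 (0.18). The other Igf2 probe set gave 0.16 ± 0.08 and a limma adjusted p of 0.195, and its values correlated with the used one at r = 0.80 over the 47 mice.

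Igf1 encodes the ligand that mediates much of growth hormone action (chr10:87858265-87937047). Its values overlapped widely, from 8.01 to 9.23 (median 8.49) in high-fat mice and from 7.45 to 8.98 (median 8.61) in control mice. The average difference was -0.04 ± 0.09 (limma adjusted p = 0.808), with a 95% interval of -0.22 to 0.14. At ZT16 the 3 high-fat mice had 8.22, 8.04 and 8.22, all under the control values of 8.59, 8.61, 8.79 and 8.30. This difference of -0.41 ± 0.23 did not pass (limma adjusted p = 0.241). At ZT0 the mean was 8.57 ± 0.42 on the high-fat diet and 8.13 ± 0.18 on the control diet, a difference of 0.44 ± 0.21 with a limma adjusted p of 0.263.

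The Igf1 probe sets differed in size of response at ZT0. One not used in the fit by gene had a mean of 6.79 ± 0.33 on the high-fat diet and 5.53 ± 0.28 on the control diet at ZT0. Its difference of 1.25 ± 0.31 passed when every probe set was tested (limma adjusted p = 0.0194), as did its interaction (adjusted p = 0.0239). Another Igf1 probe set gave 0.59 ± 0.37 at ZT0 and did not pass (limma adjusted p = 0.427). Averaged over the times, these probe sets gave 0.12 ± 0.13 and -0.08 ± 0.15, and neither passed (limma adjusted p = 0.604 and 0.785). The fourth lay below the filter.

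**Figure D3:**
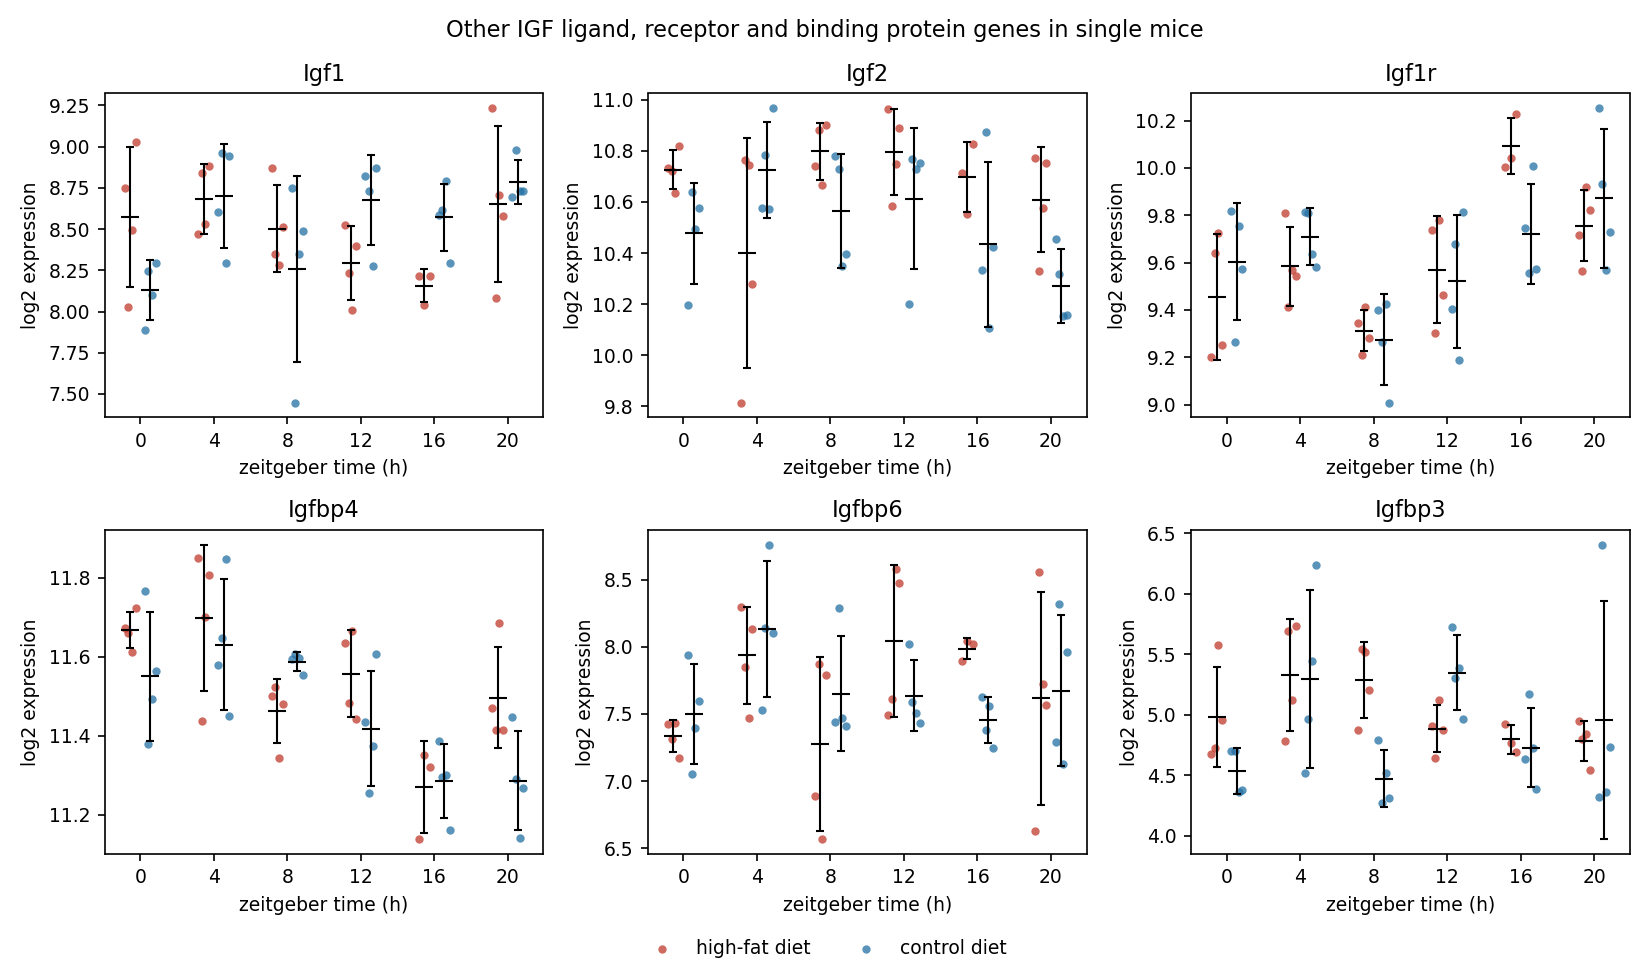
The other members with a probe set, in single mice. In each panel the x axis is zeitgeber time in hours and the y axis log2 expression; points are mice, high-fat (red) left of control (blue), and black marks give the group mean ± SD. By the probe set used, Igfbp4 is highest at ZT4 on both diets. It is lowest at ZT16 on the high-fat diet and at ZT16 and ZT20 on the control diet. Igf1r, by its used probe set, is lowest at ZT8 on both.

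Igfbp4, a binding protein that mainly restrains IGF action, passed the 24 h rhythm test on both diets (chr11:99040005-99052655). Among the 6 members tested it was the only one whose used probe set did so, against 4.71% of all genes. On the high-fat diet it was highest at ZT4, with 11.85, 11.44, 11.70 and 11.81, and lowest at ZT16, with 11.14, 11.35 and 11.32. On the control diet the used probe set was highest at ZT4 as well, with 11.58, 11.65, 11.85 and 11.45. It was low at ZT16, with 11.39, 11.29, 11.30 and 11.16, and at ZT20, with 11.45, 11.29, 11.14 and 11.27. The control means of ZT16 and ZT20 were both 11.29.

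A 24 h cosine fitted to Igfbp4 had an amplitude of 0.15 ± 0.04 on the high-fat diet and 0.19 ± 0.04 on the control diet (SE, log2 scale), a peak-to-trough ratio of 1.23-fold and 1.31-fold on these diets. It peaked in high-fat mice at 2.94 ± 0.957 h (limma adjusted p = 0.0147) and in control mice at 4.97 ± 0.733 h (adjusted p = 0.00132). The rhythm did not pass the test of a difference between diets (limma adjusted p = 0.457). Without high-fat replicate 1 at ZT16 the high-fat rhythm did not pass (limma adjusted p = 0.0631). With the day of collection as a random block, the adjusted p was 0.108 on the high-fat diet and 0.0362 on the control diet.

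All 6 Igfbp4 probe sets passed the rhythm test on the high-fat diet and 4 of 6 on the control diet. Their fitted peaks lay between 2.69 and 3.71 h in high-fat mice and between 3.45 and 4.97 h in control mice. On the control diet the probe sets not used had their highest means at ZT0 (10.26, 10.07, 9.29 and 8.78) or ZT8 (10.12). Their lowest control means were at ZT16 (9.78 and 9.72), ZT20 (8.80 and 8.07) or ZT12 (9.76). The probe sets split at ZT16. In 2 of the 6, expression fell by 0.49 ± 0.16 and 0.48 ± 0.16 on the high-fat diet (limma adjusted p = 0.0340 and 0.0440), with means of 9.43 ± 0.25 on the high-fat diet and 9.92 ± 0.12 on the control diet in the first. The means in the other were 8.52 ± 0.27 in high-fat mice and 9.0 ± 0.06 in control mice. The used probe set differed by -0.02 ± 0.09 there. The average diet difference of Igfbp4 was 0.07 ± 0.04 (limma adjusted p = 0.231).

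Igf1r, which encodes the signalling receptor (chr7:67952257-68233668), was lowest at ZT8 on both diets by the probe set used. Its ZT8 values were 9.34, 9.21, 9.41 and 9.28 on the high-fat diet and 9.40, 9.27, 9.43 and 9.01 on the control diet. Another Igf1r probe set had its lowest high-fat mean at ZT0 (8.58), against 8.63 at ZT8. By the probe set used, Igf1r was highest at ZT16 on the high-fat diet, with 10.01, 10.04 and 10.23. On the control diet that probe set was highest at ZT20, with 10.25, 9.93, 9.57 and 9.73. The control means of the other 3 probe sets were highest at ZT16 (9.808, 9.105 and 9.028), against 9.661, 9.086 and 8.999 at ZT20. In the used probe set, the ZT16 high-fat mean of 10.09 ± 0.12 was 0.22 above the next of the 12 groups. That is about the size of the pooled SD of single mice within groups (0.21). At ZT16 the control values were 9.75, 9.55, 10.01 and 9.57, which overlapped the high-fat ones. The diet difference of 0.37 ± 0.15 there did not pass (limma adjusted p = 0.102), and the other 3 Igf1r probe sets gave -0.03, -0.02 and 0.12.

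Time passed the test for Igf1r on the high-fat diet (limma adjusted p = 0.00223) and the control diet (adjusted p = 0.0181). It did so in each of the 4 Igf1r probe sets on both diets. The control call was lost without control replicate 4 at ZT8 (limma adjusted p = 0.0775). In high-fat mice the 24 h cosine had an amplitude of 0.26 ± 0.07 and peaked at 17.4 ± 0.989 h (limma adjusted p = 0.0197). In control mice the amplitude was 0.22 ± 0.07 and the peak at 20.4 ± 1.19 h (limma adjusted p = 0.0694), where it passed without control replicate 2 at ZT0 (0.0308) or 4 at ZT12 (0.0471). The other 3 probe sets passed the control rhythm (limma adjusted p = 0.0127, 0.0260 and 0.0246), and 1 of them the high-fat rhythm (0.0170). In the same order, their fitted peaks were at 18.005, 18.365 and 16.750 h in high-fat mice. In control mice these peaks were at 18.903, 18.266 and 20.847 h, so that a later control peak was not shared by all probe sets. Without high-fat replicate 3 at ZT16 the high-fat rhythm of the used probe set had a limma adjusted p of 0.0726, and with the day as a random block 0.102. The rhythms were not shown to differ between diets (limma adjusted p = 0.340). The average diet difference was 0.01 ± 0.06.

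**Figure D4:**
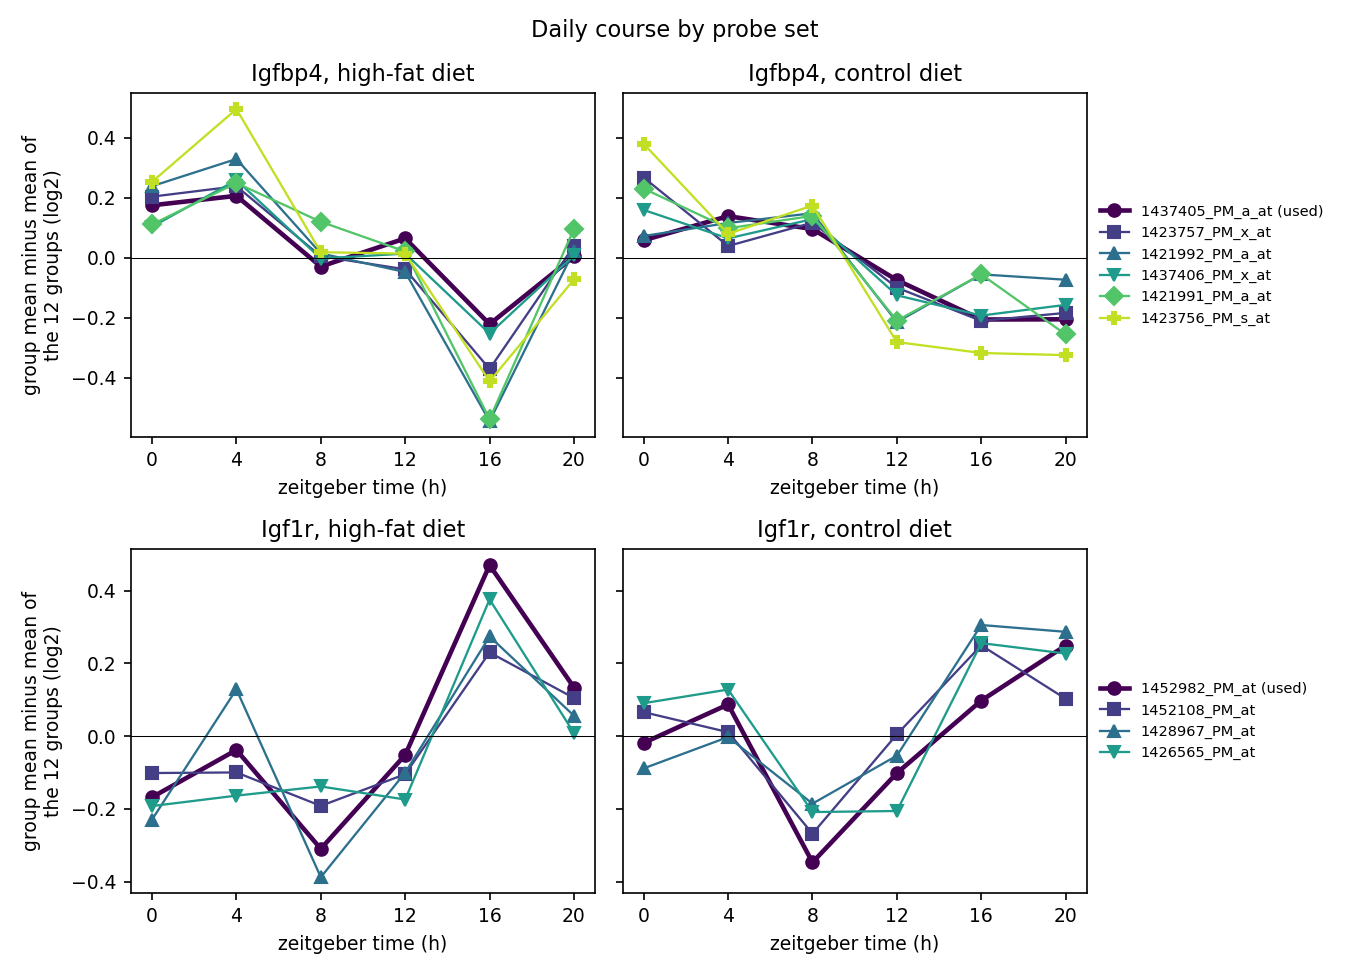
Daily course of each Igfbp4 and Igf1r probe set. The x axis is zeitgeber time in hours and the y axis the group mean minus that probe set's mean over the 12 groups (log2), with the high-fat diet on the left and the control diet on the right; the thick line is the probe set used. Igfbp4 probe sets are low at ZT16 on the high-fat diet, 2 of them by about 0.5, and Igf1r probe sets are above their means at ZT16 and ZT20 on both diets.

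Time passed for 3 of 6 members on the high-fat diet and 3 of 6 on the control diet, Igf1r, Igfbp4 and Igfbp5 each time, against 40.1% and 36.3% of all genes, with 21.2% passing on both diets. For Igfbp5 the limma adjusted p was 0.0436 on the high-fat diet and 0.0347 on the control diet. Its high-fat call was lost in 12 of the 47 fits that left out 1 mouse (adjusted p up to 0.122), namely without high-fat replicates 1, 2 or 4 at ZT0, 1 or 4 at ZT4, any of the 4 at ZT8, 3 or 4 at ZT12 or 3 at ZT16. Its control call was lost in 6 (adjusted p up to 0.0823), without control replicates 2, 3 or 4 at ZT0, 2 or 4 at ZT4 or 4 at ZT12. The rhythm test passed for 2 of 6 members on the high-fat diet, against 16.9% of all genes, and for 1 of 6 on the control diet, against 10.5%. No member passed the limma test of a rhythm difference between diets (2.11% of all genes), for which Igf1 had an unadjusted p of 0.0308 and Igfbp5 of 0.0225. For Igf1 on the control diet the time test had a limma adjusted p of 0.0547, and it passed in 7 of the 47 fits without 1 mouse (high-fat replicates 2 or 4 at ZT0 or 1 or 2 at ZT20, or control replicates 3 at ZT4, 1 at ZT8 or 3 at ZT12). Among the probe sets not used, 1 of Igf1 (limma adjusted p = 0.00839) and the other of Igf2 (0.0323) passed the control time test.

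Markers of other cells varied over the times as well. Over the 12 group means, Igf1r correlated at r = 0.77 with the macrophage and immune list and at r = 0.75 with the endothelial list, whereas between mice of a group r was 0.18 and 0.06 with these lists. Without control replicate 2 at ZT20, r over the group means was 0.68 with the immune list and 0.86 with the endothelial list. Of these lists, 2 of 10 immune and 5 of 10 endothelial markers passed the filter. The endothelial list averaged between 7.03 and 7.41 over the 6 high-fat groups and between 7.02 and 7.68 over the 6 control groups. The immune list averaged between 7.21 and 7.63 over the 6 high-fat groups and between 7.25 and 7.75 over the 6 control groups. For Igfbp4 the group means correlated at r = -0.70 with the mature myofibre list, and mice of a group at r = -0.12. The myofibre list averaged between 6.30 and 6.62 over the high-fat groups and between 6.25 and 6.72 over the control groups. The part of these lists in the daily courses was not tested.

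Igfbp6, a binding protein with a preference for IGF2 (chr15:102144186-102149512), spread widely between mice. It ranged from 6.57 to 8.58 (median 7.73) in high-fat mice and from 7.06 to 8.76 (median 7.55) in control mice. At ZT16 the high-fat mice had 7.90, 8.04 and 8.02, against 7.63, 7.38, 7.56 and 7.25 in control mice, with no overlap. That difference of 0.53 ± 0.34 did not pass (limma adjusted p = 0.307). The average difference was 0.02 ± 0.13 (limma adjusted p = 0.929), and its 95% interval ran from -0.24 to 0.29.

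Igfbp3, which encodes the main carrier of circulating IGFs (chr11:7206086-7215498), had a mean of 4.95, below the filter at 5.80. It ranged from 4.55 to 5.73 (median 4.91) in high-fat mice and from 4.27 to 6.40 (median 4.71) in control mice. The highest value, 6.40, came from the control mouse at ZT20 whose endothelial markers stood apart. Between mice of a group, Igfbp3 correlated with the endothelial list at r = 0.71 (rho 0.56), and at r = 0.43 without that mouse. Without the 2 mice farthest from the median of the endothelial list, r was 0.50. Igfbp3 also correlated with the tendon (r = 0.54), fibro-adipogenic (0.50) and immune (0.45) lists. Without the same ZT20 mouse, r was 0.42 with the tendon list and 0.28 with the fibro-adipogenic list.

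Among the other members, Igf2 correlated with the satellite cell list at r = 0.67 (rho 0.66) between mice of a group, and at r = 0.68 without the 2 mice farthest from that list's median. Igfbp6 correlated with the fibro-adipogenic list at r = 0.52 (rho 0.52), and at r = 0.46 without the 2 farthest. Each of these correlations covers 47 mice, whose values on 1 array share its RNA input and quality. They are given as descriptions.

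**Figure D5:**
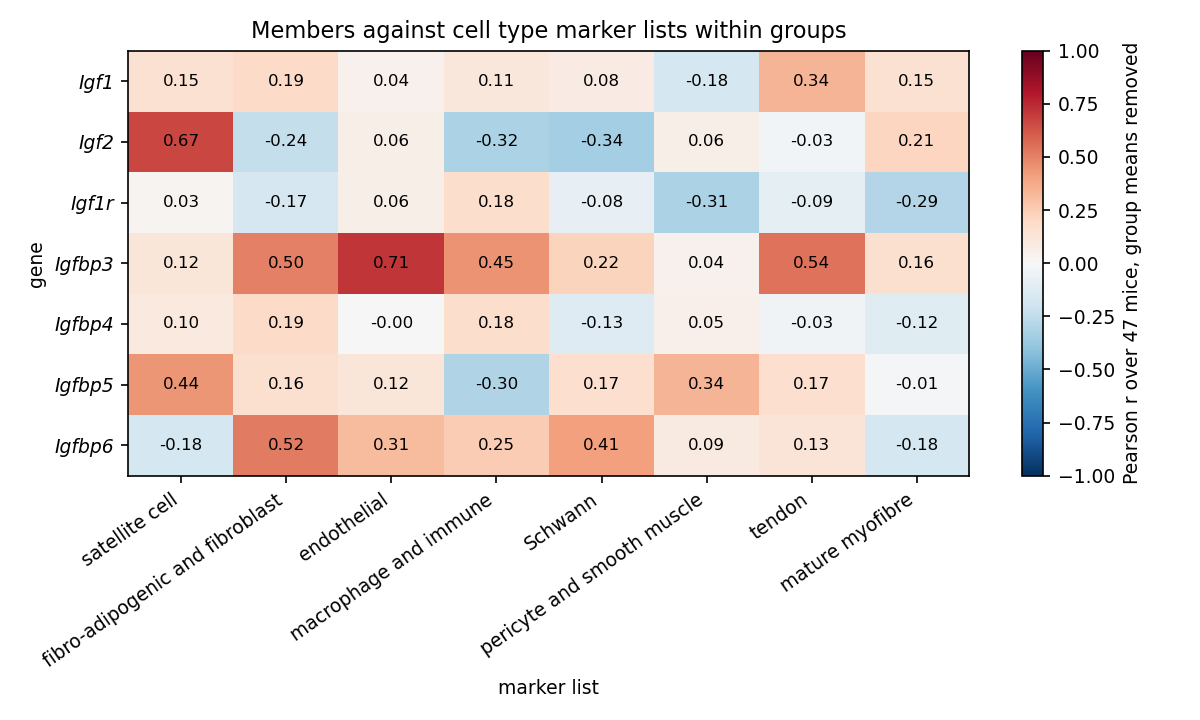
Correlation of the 7 members with 8 cell type marker lists. Genes run down the page and lists across it; the colour and the printed number are Pearson's r over 47 mice after group means were subtracted. The strongest values are Igfbp3 with the endothelial list (0.71, or 0.43 without 1 control mouse) and Igf2 with the satellite cell list (0.67).

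The genes whose values moved most like each member between mice of a group were looked up among 10257 genes. Those nearest to Igfbp5 were Tuba1a (r = 0.67), Samd8 (0.67) and Pdlim4 (0.66). Of these, Pdlim4 rose on the high-fat diet by 0.18 ± 0.04 (limma adjusted p = 0.00271), whereas Tuba1a (0.285) and Samd8 (0.965) did not pass. Those nearest to Igf2 were Col15a1, a basement membrane collagen (0.81), the imprinted RNA Meg3 (0.81) and the potassium channel gene Kcnn3 (0.81). All 3 rose on the high-fat diet, beside 4.70% of all genes. Col15a1 rose by 0.61 ± 0.13 (limma adjusted p = 0.00154), Meg3 by 0.10 ± 0.02 and Kcnn3 by 0.27 ± 0.08. Igfbp6 was nearest to Dcn, the matrix proteoglycan decorin (0.73), Flrt2 (0.71) and Zbtb24 (0.67). Igfbp4 was nearest to Clec4a2 (0.75), Ppp1r35 (0.71) and Tln1, which encodes talin (0.70). Igf1r was nearest to Prdx4 (0.65), Ctif (0.62) and Morc2a (0.62), and Igf1 to Brox (0.69), Cyc1 (0.64) and Trappc3 (0.62). None of the genes named here for Igfbp6, Igfbp4, Igf1r and Igf1 passed the test for the average diet effect.

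The rest of the pathway was read from lists of genes by role. Binding protein proteases and their inhibitors had 9 of 13 genes tested, of which 1 rose and 0 fell on the high-fat diet, beside 4.70% higher and 6.80% lower over all genes; their median log2 difference was 0.05. The 1 was Timp2, a metalloproteinase inhibitor, with 11.37 on the high-fat diet and 11.28 on the control diet, a difference of 0.09 ± 0.02 (limma adjusted p = 0.00194). Next by p came the inhibitor Timp1, 0.27 ± 0.10 (limma adjusted p = 0.0671), the serine protease Htra1, -0.33 ± 0.14 (0.106), and Adam28, -0.05 ± 0.03 (0.342). Pappa and Pappa2, proteases known to cleave IGF binding proteins, lay below the filter. So did Igfbp1, Igfals and Igfbpl1 among the other carriers, while Igfbp2 did not pass the test (-0.03 ± 0.04).

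Downstream of the receptor, 22 of 28 genes of the insulin receptor, adaptor and PI3K-AKT list were tested, and 1 rose and 3 fell, beside 4.70% and 6.80% of all genes, with a median difference of 0.01. Foxo3, a transcription factor that AKT holds out of the nucleus, rose by 0.15 ± 0.03 (limma adjusted p = 0.000332), with a difference that varied over the day (interaction adjusted p = 2.37e-07). Mtor, the growth kinase, fell by 0.19 ± 0.05 (limma adjusted p = 0.00857), Pik3ca, a catalytic subunit of PI3K, by 0.14 ± 0.05 (0.0410), and Akt2 by 0.10 ± 0.03 (0.0499). The interaction passed for 6 of the 22 genes, against 12.4% of all genes.

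Upstream of Igf1, all 7 genes of the growth hormone receptor list were tested, and 1 rose and 0 fell, beside 4.70% and 6.80% of all genes, with a median difference of 0.10. Socs2, a feedback inhibitor of growth hormone signalling, rose by 0.16 ± 0.05 (limma adjusted p = 0.0371). The transcription factor gene Stat5a differed by 0.10 ± 0.04 (limma adjusted p = 0.0939), Socs3 by 0.13 ± 0.06 (0.149) and the receptor gene Ghr by 0.12 ± 0.07 (0.267). Of the Igf2 mRNA binding proteins, Igf2bp3 was the 1 tested, and it rose by 0.32 ± 0.09 (limma adjusted p = 0.0108).

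Among imprinted genes of the growth network, 8 of 12 were tested, and 3 rose and 0 fell, beside 4.70% and 6.80% of all genes, with a median difference of 0.04. Zim1 rose by 0.36 ± 0.08 (limma adjusted p = 0.00266) and its imprinted neighbour Peg3 by 0.16 ± 0.04 (0.0175), and Meg3 passed as given above (0.00973). Cdkn1c, which encodes the cell cycle inhibitor p57, had means of 8.34 on the high-fat diet and 8.72 on the control diet, a difference of -0.38 ± 0.15 (limma adjusted p = 0.0860). Over all genes tested, the median average difference was -0.01.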

How the data were processed

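Per the labels' protocols, total RNA was extracted with TRizol, 25 ng were amplified over 17 cycles (WTA2), and 8 µg of cDNA were hybridised to Affymetrix arrays. The authors deposited log2 expression values per probe set, normalized with RMA per the submitters' processing notes. The sources used here do not give the version or settings.

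Of 45141 probe sets, 28898 carried 1 gene symbol, 551 several and 15692 none in the platform annotation; 28689 matched the RefSeq gene table. The 104 control probe sets were left out. The probe set with the highest mean stood for each of 17097 genes, and genes under the 40th percentile of gene means (5.80) were dropped, which left 10258. limma 3.58.1 (R 4.3.3) was fitted to 12 group means with lmFit and eBayes (trend), and p-values were adjusted by Benjamini and Hochberg over all 10258 genes with a threshold of 0.05. Tests from this fit were the diet difference per time and averaged, the diet by time interaction, and time within each diet. The 24 h rhythm tests came from a separate fit of the diet means with a cosine and a sine within each diet. The rhythm difference was tested in another fit, with time as a factor, diet, and diet by cosine and sine. Fold changes are powers of 2 of log2 differences, and levels of different probe sets are set against each other only to choose 1 per gene. The number of arrays limits the precision. In the fit of 12 group means, p-values rest on the spread between mice within groups. In the rhythm fits the residual also holds departures from a 24 h cosine, of the group means or of the diet differences.

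Replicate numbers were checked as pairs across diets: deviations of 23 same-numbered pairs correlated between -0.193 and 0.114, which gave no sign of a pairing. Whether same-numbered mice shared handling was not tested. Members, lists and alternatives were chosen with earlier results of these data known. The text names all members, up to 4 genes per pathway list with the smallest p of the average diet effect, and the 3 genes most like each tested member. A marker list's level is the mean log2 value of its tested genes. Figures were drawn with matplotlib 3.10.9.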

Additional observations from a re-analysis of the deposited data

Results flagged for a closer look

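In control mice at ZT20, Igf1 was 8.98 in replicate 2, against 8.69 to 8.73 in the other 3 mice. In control mice at ZT12, Igf2 was 10.2 in replicate 1, against 10.73 to 10.77 in the other 3. In control mice at ZT8, Igfbp6 was 8.29 in replicate 2, against 7.41 to 7.47 in the other 3. Each of these single mice stood apart by Dixon's criterion. That criterion was applied to 77 sets of values (7 genes in 11 groups of 4 mice) and picks about 1 in 20 by chance.

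The Igfbp5 diet difference varied between the 6 times (limma interaction, adjusted p = 0.0212), from -0.41 at ZT4 to 1.54 at ZT0 on the log2 scale.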

How the results depend on the processing

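Replicate numbers gave no sign of pairing mice across diets. With replicate number as a block, Igfbp5 had an average diet difference of 0.68, an interaction adjusted p of 0.0316 and a lost high-fat time effect (0.0576), and Igf1 gained a control time effect (0.0432). Genes called fell to 56 at ZT12 (88 without the block) and to 105 for the rhythm difference (216 without it). The cause of the changes below was not tested.

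With array weights, members called were 2 for the average effect (Igf2 gained, 0.18), 2 at ZT16 (Igf1r gained, 0.40) and 2 for the control rhythm (Igf1r gained, adjusted p = 0.0191). Genes called were then 2199 for the interaction (1276 in the reported fit), 2014 for the control rhythm (1081), 11 at ZT4 (32), 775 at ZT8 (183), 2678 at ZT16 (1360) and 597 for the rhythm difference. Uncalled differences turned sign for Igf1r (average -0.0015, ZT8 -0.0281), Igf1 (ZT4, 0.005) and Igfbp6 (ZT20, 0.0609). With every probe set tested, calls were 1880 for the average effect (1180), 586 at ZT0 (365), 58 at ZT4, 295 at ZT8, 2220 at ZT16, 148 at ZT20 (84), 1921 for the interaction, 6866 for high-fat time (4115), 6230 for control time (3725), 2806 for the high-fat rhythm (1731) and 1774 for the control rhythm. Without a filter, 314 genes passed at ZT8 and 57 at ZT12, and the Igfbp5 high-fat time effect had an adjusted p of 0.0582. The stricter filter left 20 at ZT4.

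With the mean of all probe sets, 2 members passed the control rhythm, and uncalled differences turned for Igf1 (average 0.0063), Igf1r (average -0.0563, ZT8 -0.0046, ZT12 -0.0187) and Igfbp4 (ZT0, -0.0139). Cyclic loess turned Igfbp4 at ZT16 (0.0088). Igf1 control time passed with cyclic loess, the stricter filter and the probe set mean (adjusted p 0.0335, 0.0422 and 0.0346). With day as a random block, 0 members and 580 genes passed the high-fat rhythm, and 289 genes the control rhythm.

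Without all ZT0 mice, 730 genes passed the average effect, and without all ZT16 mice 584, with 271 for the interaction. The Igfbp5 interaction then had an adjusted p of 0.0767 (without ZT0), 0.208 (without ZT4) or 0.0582 (without ZT16), so that 0 members passed; without ZT4, 2 members passed the average effect. Uncalled averages turned without ZT12 (Igf1 0.025, Igfbp6 -0.0508) and without ZT16 (Igf1 0.0312, Igf1r -0.0606, Igfbp6 -0.0767).

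Over fits that left out 1 mouse, members called ranged from 1 to 2 for the average effect, 0 to 1 at ZT16, 1 to 2 for the high-fat rhythm and 1 to 2 for the control rhythm, and the genes with an interaction from 837 (without high-fat replicate 3 at ZT16) to 1392. Genes called by diet ranged from 122 (without high-fat replicate 4) to 426 at ZT0, 10 (without control replicate 2) to 39 at ZT4, 58 (without control replicate 3) to 215 at ZT8, 16 (without high-fat replicate 3) to 107 at ZT12, 598 (without high-fat replicate 3) to 1406 at ZT16 and 41 (without control replicate 2) to 100 at ZT20, and for the rhythm difference from 59 (without high-fat replicate 3 at ZT16) to 247. Igfbp5 at ZT16 ranged from 0.92 to 1.35. Uncalled differences that crossed 0 ranged from -0.0072 to 0.0327 (Igf1r average), -0.0272 to 0.0801 (Igfbp6 average), -0.153 to 0.0676 (Igf1, ZT4), -0.0242 to 0.409 (Igf1, ZT8), -0.327 to 0.0564 (Igf1, ZT20), -0.0516 to 0.0878 (Igf1r, ZT8), -0.0612 to 0.147 (Igf1r, ZT12), -0.216 to 0.0115 (Igf1r, ZT20), -0.0570 to 0.0506 (Igfbp4, ZT16), -0.398 to 0.0124 (Igfbp6, ZT4) and -0.368 to 0.275 (Igfbp6, ZT20).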

Other observations

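Some members moved together between mice of the same group (47 mice, group means subtracted). Igf1r and Igfbp4 had r = 0.48, although their group means over the 12 groups ran opposite (r = -0.58). Igf2 and Igfbp5 had r = 0.41 between mice and 0.75 over group means. Igf1 and Igfbp6 had r = -0.42 between mice and -0.04 over group means. These are descriptions of 21 pairs whose values share arrays, with no test.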
